A study of Mus musculus with 10 samples.

Results

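The cyclin-dependent kinase (CDK) inhibitor genes were described across 5 groups of mouse cells profiled by RNA-seq. The genes were chosen by symbol: the Cip/Kip genes Cdkn1a, Cdkn1b and Cdkn1c, and the Ink4 genes Cdkn2a, Cdkn2b, Cdkn2c and Cdkn2d. Of these 7 genes, 6 had rows among the 19025 genes of the files, and Cdkn2d was not analysed here. The first group was Th2 cells, grown for 5 days from splenic CD4 T cells of C57BL/6 mice with 15 ng/ml IL-2 and 10 ng/ml IL-4, to which 10 nM trichostatin A (TSA), an inhibitor of histone deacetylases, was added on day 2 for 3 days. The second was Th2 cells from the same kind of culture without TSA. CD4 T cells and B220 B cells came from the spleens of C57BL/6 mice aged 6 to 8 weeks and were isolated with magnetic beads to over 98% purity. The B6N-22 embryonic stem (ES) cells, a single line, were grown with LIF on mitomycin C-treated embryonic fibroblast feeders. Each group had 2 libraries. All groups share the C57BL/6 strain.

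CDK inhibitors slow the cell cycle by binding the kinases that drive it. The Cip/Kip proteins p21 (Cdkn1a), p27 (Cdkn1b) and p57 (Cdkn1c) bind several cyclin-CDK complexes, while the Ink4 proteins p16 (one product of Cdkn2a), p15 (Cdkn2b) and p18 (Cdkn2c) bind Cdk4 and Cdk6. Cdkn2a also encodes, from its own first exon, p19Arf, which stabilises p53. Cdkn1a is a classic p53 target and a well-known gene induced by histone deacetylase inhibitors in many cell lines, and p27 is known for holding resting lymphocytes out of the cycle.

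Values are FPKM, fragments scaled by transcript length and by library total, as deposited, and a gene took the highest of its rows. The FPKM of a library summed to between 405438.5 and 521872.1, and between 9652 and 11456 genes reached 1 FPKM. The depth is unknown, since FPKM keeps no read numbers. The libraries of the ES, B and CD4 T pairs differed from each other by a standard deviation of 0.0417 to 0.0458 in log2 ratio. This standard deviation was 0.307 for the Th2 pair and 0.322 for the TSA-treated pair. If reads were only sampled, the scatter would imply the same depth at every abundance. The implied depth ranged 2.61-fold in the ES, 2.50-fold in the B and 2.12-fold in the CD4 T pair. Each of these pairs was counted as 1 sample, since the range was under a set limit of 5-fold. Sampling alone was not shown. The range was 21.3-fold for the Th2 pair and 17.4-fold for the TSA-treated pair. Nothing in the labels ties the replicates to separate cultures or animals, so a p-value here measures only how far these libraries vary, and that variation may be technical. Pluripotency markers summed to between 2979 and 2980 FPKM in ES cells and to at most 5.04 FPKM elsewhere, T cell markers to between 1535 and 2783 FPKM in the 3 T cell groups, and B cell markers to between 11937 and 11986 FPKM in B cells. B cell markers summed to 15.2 to 31.2 FPKM in Th2 libraries, with 1 of 10 at 0, against 1540 to 1550 FPKM in CD4 T libraries. Cd74 made up most of these sums, at a mean of 17.4 FPKM in Th2 and 1236.7 in CD4 T cells. Myeloid markers summed to 3.07 to 3.78 FPKM in Th2 libraries, with 3 of 9 at 0, against 552.2 to 562.3 FPKM in CD4 T libraries. The part of these other cells in the values below was not tested. In bulk samples, fewer cells of a type and less RNA per cell cannot be told apart.

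On GRCm38, Cdkn1a lies at chr17:29090976-29100727 and Cdkn1b at chr6:134920401-134925513, both on the plus strand, and Cdkn1c at chr7:143458339-143461050 on the minus strand. Cdkn2a (chr4:89274471-89294653), Cdkn2b (chr4:89306299-89311039) and Cdkn2c (chr4:109660876-109667189) are on the minus strand of chromosome 4. Windows of 250 bases before annotated starts, from RefSeq on GRCm38.p6, are shown for the 3 genes on which the results turn. Capitals mark only the GC boxes and the p53 response element described in the next paragraph. CCAAT and TATAA were also searched on both strands and are not in capitals. CCAAT occurred 2 times before Cdkn1b, and TATAA 1 time before each Cdkn1a start. They were present in 33.8% and 22.8% of all windows. The first Cdkn1a start (chr17:29090729-29090978, plus strand) is that of NM_001111099, and the second (chr17:29093519-29093768, plus strand) that of NM_007669. Cdkn1b is at chr6:134920151-134920400, plus strand. Of the Cdkn2a starts, both on the minus strand, the one at chr4:89294620-89294869 gives p19Arf (NM_009877) and the one at chr4:89282193-89282442 gives p16 (NM_001040654).
Cdkn1a first start: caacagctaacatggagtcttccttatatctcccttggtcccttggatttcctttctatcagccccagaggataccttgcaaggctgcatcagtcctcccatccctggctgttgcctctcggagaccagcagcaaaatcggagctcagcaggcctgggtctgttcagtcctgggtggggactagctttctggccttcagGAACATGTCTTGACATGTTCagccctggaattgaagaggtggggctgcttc
Cdkn1a second start: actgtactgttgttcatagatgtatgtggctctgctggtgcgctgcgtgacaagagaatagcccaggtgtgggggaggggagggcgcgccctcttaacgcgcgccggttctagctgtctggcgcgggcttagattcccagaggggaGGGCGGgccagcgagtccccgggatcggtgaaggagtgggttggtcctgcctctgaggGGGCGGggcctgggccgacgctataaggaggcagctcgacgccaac
Cdkn1b: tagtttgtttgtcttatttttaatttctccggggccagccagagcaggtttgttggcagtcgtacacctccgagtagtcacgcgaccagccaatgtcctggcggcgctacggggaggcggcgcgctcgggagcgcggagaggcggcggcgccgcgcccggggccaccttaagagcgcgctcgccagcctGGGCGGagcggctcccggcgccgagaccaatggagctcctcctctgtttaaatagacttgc
Cdkn2a p19Arf start: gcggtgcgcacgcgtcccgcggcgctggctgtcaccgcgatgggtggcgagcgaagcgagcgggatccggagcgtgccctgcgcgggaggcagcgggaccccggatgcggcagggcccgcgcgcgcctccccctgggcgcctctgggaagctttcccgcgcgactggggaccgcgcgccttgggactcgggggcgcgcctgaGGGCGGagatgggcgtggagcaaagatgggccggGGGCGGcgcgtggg
Cdkn2a p16 start: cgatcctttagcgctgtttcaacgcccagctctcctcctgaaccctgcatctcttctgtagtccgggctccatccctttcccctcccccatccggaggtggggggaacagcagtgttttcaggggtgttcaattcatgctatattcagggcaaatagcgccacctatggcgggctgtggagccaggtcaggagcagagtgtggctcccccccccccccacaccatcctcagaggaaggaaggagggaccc

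The GC box GGGCGG, the recognition core of Sp1-type factors, was searched on both strands. It occurred 2 times before the second Cdkn1a start, 1 time before Cdkn1b, 2 times before the p19Arf start, and was not found before the first Cdkn1a start or the p16 start. It was present in 32.7% of 32851 such windows. The p53 response element was searched in 2 forms. The form searched first, exact half-sites with a spacer of at most 13 bases, had 1 match before the first Cdkn1a start, 32 bases long and beginning 73 bases before it, and occurred in 0.0639% of windows. The form in capitals, 20 bases without a spacer and with at most 1 mismatch, begins 51 bases before the start and occurred in 0.0761% of windows. This second form was chosen after the match of the first was seen, because it marks an element already known in this gene. The 2 matches overlap. None of the other 4 windows held either form. These matches are descriptions of the letters, and neither the binding of a factor nor acetylation was measured.

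Cdkn1a was the most abundant of the CDK inhibitor transcripts in both kinds of Th2 culture. It stood at 170.95 and 220.17 FPKM in TSA-treated Th2 libraries and at 110.71 and 168.60 FPKM in Th2 libraries. CD4 T libraries had 1.14 and 1.02 FPKM, B libraries 1.10 and 1.09 FPKM, and ES libraries 68.57 and 69.35 FPKM. The CD4 T and B libraries were low and overlapped, and by the highest row every Th2 library lay above every ES library. The ES files hold a further Cdkn1a row at 68.3 and 69.31 FPKM, while the Th2 files repeat a single value. With both ES rows added together, the ES libraries would lie above the lower untreated Th2 library. The TSA-treated and untreated values did not overlap, but their gap was small beside the spread within each pair.

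Cdkn1b had a different order, with its high values in the freshly isolated lymphocytes. TSA-treated Th2 libraries held 11.49 and 19.98 FPKM, Th2 libraries 18.27 and 38.74 FPKM, CD4 T libraries 93.58 and 93.32 FPKM, B libraries 62.37 and 62.40 FPKM, and ES libraries 10.32 and 9.94 FPKM. The ES libraries were the lowest, and the TSA-treated and untreated Th2 libraries overlapped. Cdkn1c, an imprinted gene, was highest in ES cells at 12.48 and 12.40 FPKM. It stood at 1.69 and 2.99 FPKM in TSA-treated Th2 libraries, 0.54 and 1.16 in Th2, 0.67 and 0.79 in CD4 T, and 0.15 and 0.14 in B libraries, with Th2 and CD4 T overlapping.

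Among the Ink4 genes, Cdkn2a stood at 28.36 and 40.57 FPKM in TSA-treated Th2 libraries and at 5.79 and 4.0 FPKM in Th2 libraries. CD4 T libraries had 0.44 and 0.47 FPKM, B libraries 0.18 and 0.11 FPKM, and ES libraries 24.69 and 25.95 FPKM. No pair of groups overlapped in the highest row, and by that rule the TSA-treated libraries were the highest of all. The Th2 files repeat a single value for both Cdkn2a rows, while the ES files also hold a lower row at 21.21 and 22.67 FPKM. With both ES rows added together, the ES libraries would be the highest for Cdkn2a. Cdkn2b, its neighbour on chromosome 4, stood at 3.10 and 5.16 FPKM in TSA-treated Th2, 1.57 and 1.69 in Th2, 0.58 and 0.63 in CD4 T, 0.02 and 0.06 in B, and 10.35 and 9.80 in ES libraries. Cdkn2c, elsewhere on chromosome 4, stood at 32.86 and 29.37 FPKM in TSA-treated Th2, 23.60 and 19.51 in Th2, 7.86 and 7.84 in CD4 T, 7.13 and 7.34 in B, and 0.65 and 0.53 in ES libraries. It was thus lowest where Cdkn2b was highest.

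**Figure D1:**
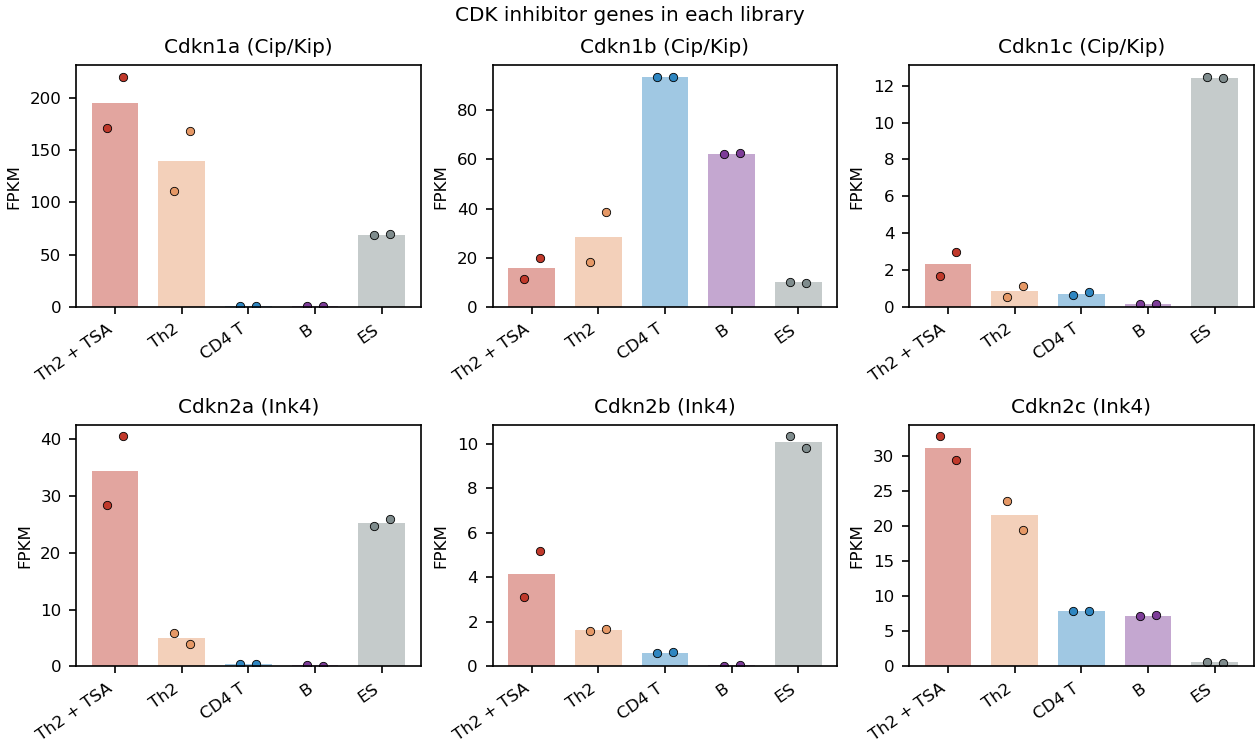
FPKM (vertical axis, linear) of the 6 CDK inhibitor genes in TSA-treated Th2, Th2, CD4 T, B and ES cells; points are the 2 libraries of a group and bars their mean. Cdkn1a and Cdkn2a were near 0 in CD4 T and B cells, where Cdkn1b was highest, and Cdkn2a reached 28.36 and 40.57 FPKM in TSA-treated Th2 libraries against 5.79 and 4.0 in Th2 libraries.

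Summed over the 3 Cip/Kip genes, the mean was 213.6 FPKM in TSA-treated Th2, 169.0 in Th2, 95.3 in CD4 T, 63.6 in B and 91.5 in ES cells. The 3 Ink4 genes summed to 69.7, 28.1, 8.91, 7.42 and 36.0 FPKM in the same groups. These sums use the highest row of each gene, which in ES, B and CD4 T files may be only part of the gene's transcripts. The leading gene changed with the group. Cdkn1a made up 69.0% of the 6-gene sum in TSA-treated Th2, 70.6% in Th2 and 54.1% in ES cells, whereas Cdkn1b made up 89.7% in CD4 T and 87.8% in B cells. Ink4 transcripts were 24.7% of the sum in TSA-treated Th2 and 15.0% in Th2 cells.

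**Figure D2:**
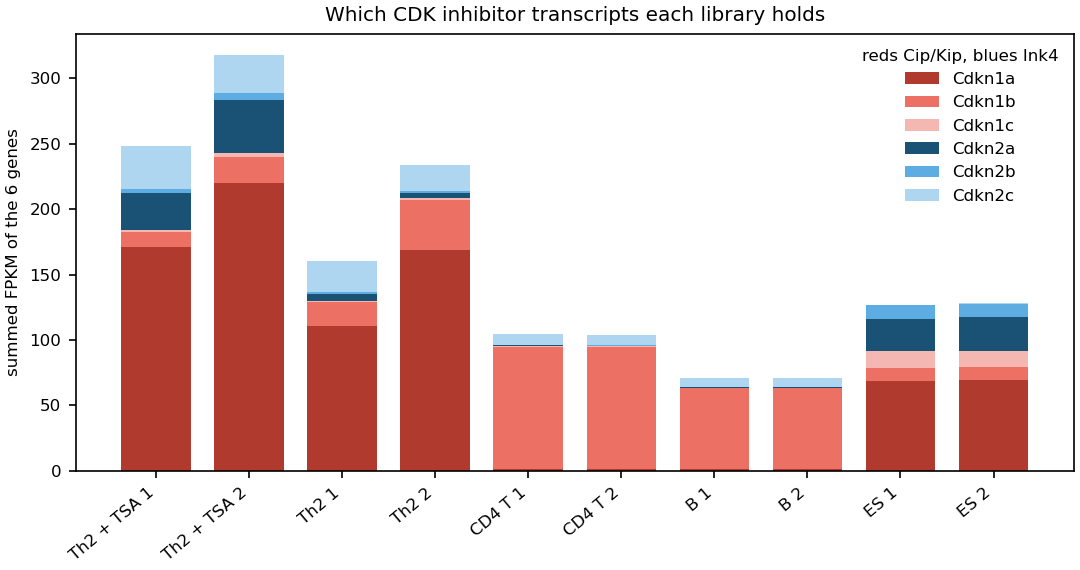
Summed FPKM (vertical axis) of the 6 CDK inhibitor genes in each of the 10 libraries, stacked by gene, with Cip/Kip genes in reds and Ink4 genes in blues. Cdkn1b fills most of the CD4 T and B bars (89.7% and 87.8%), and Cdkn1a most of the Th2 bars (69.0% with TSA and 70.6% without).

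The comparison of TSA-treated with untreated Th2 cultures asked which of these genes respond to the inhibitor. Cdkn2a rose, and the other 5 genes did not pass the test. Changes were tested with limma on log2(FPKM + 1) over 12907 genes, and an adjusted p (Benjamini-Hochberg) below 0.05 was a call. Over all genes, 9.26% were called higher and 4.14% lower, against 1 of 6 CDK inhibitor genes higher and 0 lower. The log2 fold change of Cdkn2a was 2.58 (SE 0.28, 95% interval 1.72 to 3.45, limma adjusted p = 0.0351, n = 2 and 2), and 0.372% of genes had a higher one. In FPKM, the mean of Cdkn2a was 7.04 times as high with TSA. The call was lost when any 1 Th2 library was left out, while the log2 fold change stayed between 2.33 and 2.83. Such a fit has 1 sample in a group, and most or all calls over all genes were lost with it. The loss is therefore not particular to Cdkn2a. The Cdkn2a call was also lost without the filter on low values, at a limma adjusted p of 0.0562. With a block for the experiment number it was lost too (limma adjusted p = 0.0558), and Cdkn1c was called (0.0485). The labels do not say that this number marks a shared culture.

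Cdkn1a had a log2 fold change of 0.50 (SE 0.29, 95% interval -0.38 to 1.39, limma adjusted p = 0.300). The ratio of its mean FPKM was 1.40. The interval holds both no change and more than a doubling of FPKM + 1, so a missed call does not show that Cdkn1a was unaffected. Cdkn2b had 0.93 (limma adjusted p = 0.0957), Cdkn1c 0.85 (0.156) and Cdkn2c 0.51 (0.107), and none of these passed. Cdkn1b had -0.77, with a 95% interval of -2.37 to 0.82 and a limma adjusted p of 0.366. With the block for the experiment number, the limma adjusted p was 0.0719 for Cdkn1a and 0.0591 for Cdkn1b. It was 0.0809 for Cdkn2b and 0.0550 for Cdkn2c, so these genes were not called with it either. Set against Cdkn1a, Cdkn2a had an FPKM ratio of 0.166 and 0.184 in TSA-treated libraries and of 0.0523 and 0.0237 in Th2 libraries. An exact two-sided permutation test of that ratio gave p = 0.333. This is the smallest that 2 against 2 libraries allow, so the test cannot tell whether Cdkn2a and Cdkn1a responded differently. B cell markers summed to 69.2 and 198.4 FPKM in TSA-treated libraries, against 15.2 and 31.2 FPKM in Th2 libraries. Cd74 made up most of these sums, at a mean of 99.7 FPKM with TSA and 17.4 without. The part of other cells in the result was not tested, and Cdkn2a itself was at 0.18 and 0.11 FPKM in B libraries.

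The comparison of Th2 cells with splenic CD4 T cells, the kind of cell they are grown from, asked how the genes differ. No label ties the CD4 T libraries to the cells that started the cultures. Cdkn1a, Cdkn2a and Cdkn2c were higher in Th2 cells, and none of the 6 was called lower. Of 12367 genes tested, 16.9% were called higher and 38.1% lower, and the split moved with the scaling: 30.7% of calls were higher in the values as deposited, 45.7% with median-ratio scaling and 49.3% with quantile normalization. Cdkn1a had a log2 fold change of 6.05 (SE 0.35, limma adjusted p = 0.00325, n = 2 and 1), with 0.0809% of genes above it. Cdkn2a had 2.00 (limma adjusted p = 0.0214) and Cdkn2c 1.34 (limma adjusted p = 0.0122). The Cdkn2a call was lost without the first Th2 library (adjusted p = 0.0796) or the second (0.0640) and with a pseudocount of 5 (0.0717), and the Cdkn2c call without the first (0.0562). Cdkn1b had -1.77 with a 95% interval of -3.73 to 0.18 (limma adjusted p = 0.0980) and did not pass. Cdkn1c (0.08, adjusted p = 0.879) and Cdkn2b (0.71, adjusted p = 0.130) did not pass limma's threshold either. The CD4 T pair counts as 1 sample, which the fit assumes to vary like the Th2 groups. The kind of file also differs between these groups. Rows of a symbol were identical in the Th2 files, and 4436 genes were at 0 in all of them, against 2300 in all other files. Cell group and kind of file cannot be told apart in any comparison of Th2 with CD4 T or ES cells.

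**Figure D3:**
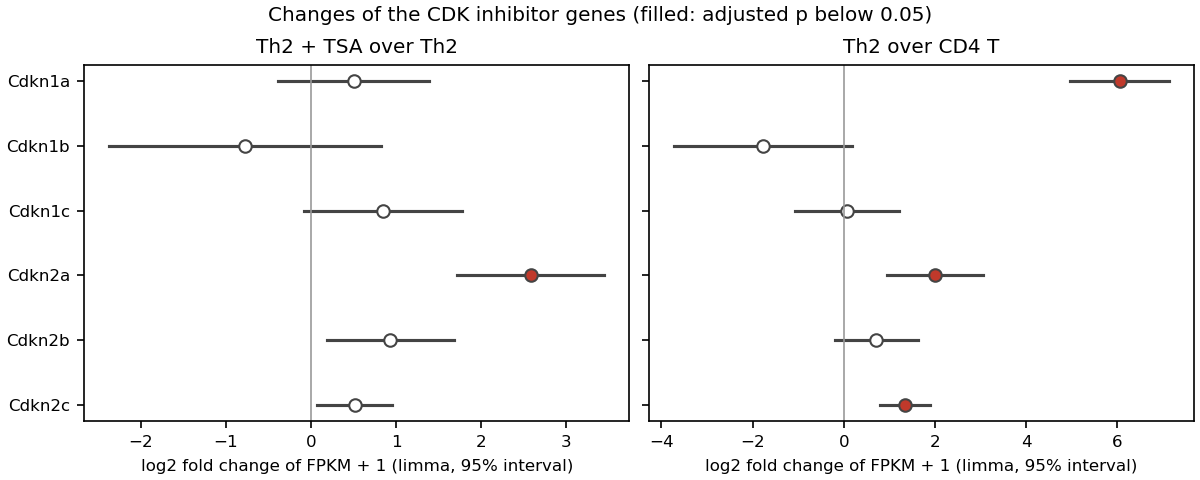
Log2 fold change of FPKM + 1 (horizontal axis) of each CDK inhibitor gene in TSA-treated over untreated Th2 cells (left) and in Th2 over CD4 T cells (right), with 95% limma intervals and filled points for an adjusted p below 0.05. Cdkn2a is filled on both sides (2.58 and 2.00), whereas Cdkn1a is filled on the right alone, at 6.05.

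Against ES cells, Th2 cells had more Cdkn2c (log2 fold change 3.82, limma adjusted p = 0.00113) and less Cdkn1c (-2.88, 0.00983), Cdkn2a (-2.18, 0.0154) and Cdkn2b (-2.07, 0.0123), with n = 2 and 1 in limma's fit across all genes. The ES pair counts as 1 sample, so the spread comes from the Th2 groups alone and the ES sample is assumed to vary like them. Thus 1 gene was higher and 3 were lower, where 19% of all genes were called higher and 43.1% lower. The split of all calls again moved with scaling, at 30.6% higher as deposited, 46.3% with median-ratio scaling and 49.1% with quantile normalization. Cdkn1a (0.98, limma adjusted p = 0.0910) and Cdkn1b (1.31, 0.160) did not pass. Without the second Th2 library the Cdkn2a call was lost (adjusted p = 0.0643), and without either Th2 library the Cdkn2b call was lost (0.0649 and 0.0645). ES libraries also held feeder fibroblast markers, among them Col1a1 at 147.0, Acta2 at 192.7 and Tagln at 294.2 FPKM, and none of the 12 markers was at 0. The list summed to 2848 to 3169 FPKM in Th2 libraries, where Vim and Thy1 made up most of the sum and 3 were at 0, against 1693 to 1695 FPKM in ES libraries. Fibroblast RNA and ES cell RNA cannot be told apart in these values. Nor can cell group and kind of file, as in the comparison with CD4 T cells.

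Among CD4 T, B and ES cells both sides of a comparison had 1 sample, so no test was made, and a gene was counted when its log2 fold change reached 2 in size and the higher group held 5 FPKM or more. In CD4 T against ES cells, Cdkn1b (3.09) and Cdkn2c (2.48) were higher, and Cdkn1a (-5.07), Cdkn2a (-4.18), Cdkn1c (-2.96) and Cdkn2b (-2.79) were lower. This rule took 10.8% of all genes as higher and 11.9% as lower. B against ES cells gave the same 2 genes higher (2.51 and 2.37) and the same 4 lower (-5.06, -4.52, -3.55 and -3.41), against 9.45% and 13.4% of all genes. These comparisons share the ES samples. Between CD4 T and B cells no CDK inhibitor gene passed, with log2 fold changes between -0.01 and 0.63, where 2.56% of all genes were higher and 1.7% lower. With a pseudocount of 5, 1 gene was higher and 2 were lower in each comparison with ES cells. Of all 12907 genes, 816 were then higher and 721 lower in CD4 T cells, and 776 and 833 in B cells.

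The kinases and cyclins that these proteins bind were mostly higher in Th2 than in CD4 T cells. Of 11 CDK and cyclin genes, 8 rose and 1 fell, with a median log2 fold change of 1.78 against -0.28 over all genes, of which 16.9% rose and 38.1% fell. Ccnb1, the mitotic cyclin B1, averaged 79.1 FPKM in Th2 and 2.17 in CD4 T cells, and Cdk1, its kinase, 72.7 and 4.34 FPKM. Ccnd1, a D-type cyclin that activates Cdk4 and Cdk6, was the 1 gene that fell, to 0.14 FPKM in Th2 against 24.0 FPKM in CD4 T cells. All 16 proliferation markers rose (median 2.70), where 16.9% of all genes did, among them Rrm2, a ribonucleotide reductase subunit, at 210.1 against 14.6 FPKM. So the Th2 libraries with high Cdkn1a also held high levels of cell cycle transcripts, and the part of one in the other was not tested.

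With TSA, 1 of the 11 CDK and cyclin genes rose and 1 fell (median -0.40, against 0.02 over all genes), a share near that of all genes, of which 9.26% rose and 4.14% fell. Every call with TSA in the lists described here and in the following paragraphs was lost when either untreated Th2 library was left out of limma's fit. Ccnd2, another D-type cyclin, averaged 165.6 ± 5.25 FPKM in TSA-treated and 67.7 ± 4.15 FPKM in untreated Th2 cells (SD, n = 2 each; limma adjusted p = 0.0271). Ccna2, cyclin A2 of S phase, averaged 70.9 ± 3.92 and 107.5 ± 1.29 FPKM (limma adjusted p = 0.0366). Of the 16 proliferation markers, 1 fell, the helicase subunit gene Mcm2 (a log2 fold change of -0.67), and none rose, with a median of -0.57, against 4.14% of all genes lower and 9.26% higher. Of 11 pocket protein and E2F genes, 1 rose, Rb1, the retinoblastoma protein that Cdk4 and Cdk6 phosphorylate, at 28.4 FPKM with TSA and 16.6 without (limma adjusted p = 0.0411), again a share near the 9.26% of all genes. In Th2 against CD4 T cells, 7 of these 11 rose and 2 fell (median 0.80), against 16.9% and 38.1% of all genes, with E2f8 at 25.3 against 2.83 FPKM and E2f5 at 2.15 against 8.35 FPKM.

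Among 16 genes of p53 and its targets, 5 rose with TSA and none fell, with a median of 0.86, where 9.26% of all genes rose and 4.14% fell. They were Gadd45a, a growth arrest gene (9.07 FPKM with TSA, 1.16 without, limma adjusted p = 0.0429), Trp53inp1 (42.7 and 14.3 FPKM, 0.0333), Ccng1, Aen and Ei24. Trp53 itself averaged 54.7 FPKM with TSA and 86.5 without and was not called. In Th2 against CD4 T cells, 6 of the 16 rose and 5 fell, against 16.9% and 38.1% of all genes. Phlda3 stood at 18.4 against 0.77 FPKM, and Sesn1 at 8.64 against 87.7 FPKM.

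Of 22 regulators of CDK inhibitors, 2 rose with TSA and none fell (median -0.03), a share near the 9.26% of all genes that rose. They were Foxo1, a factor known to activate Cdkn1b, at 26.3 FPKM with TSA and 13.9 without (limma adjusted p = 0.0282), and Hdac1, a target of the drug, at 110.5 and 78.1 FPKM (0.0402). In Th2 against CD4 T cells 20 were tested, without Myc and Tbx3, which are listed at 0 in the Th2 files, and of these 5 rose and 8 fell (median -0.35), against 16.9% and 38.1% of all genes. Cks1b, a cofactor in the degradation of p27, stood at 150.9 against 8.42 FPKM, Foxo1 at 13.9 against 64.3 FPKM, the Polycomb gene Ezh2 at 122.5 against 28.4 FPKM and Cbx7, a Polycomb gene known to repress the Ink4 locus, at 15.3 against 92.4 FPKM. Of 8 genes of the imprinted domain around Cdkn1c, Tspan32 fell with TSA (23.4 FPKM against 51.1, limma adjusted p = 0.0258) and none rose, where 4.14% and 9.26% of all genes did. In Th2 against CD4 T cells 1 of the 8 rose and 3 fell, shares near the 16.9% and 38.1% of all genes. Mtap, beside the Ink4 locus, stood at 15.9 FPKM with TSA and 21.5 without (limma adjusted p = 0.204).

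**Figure D4:**
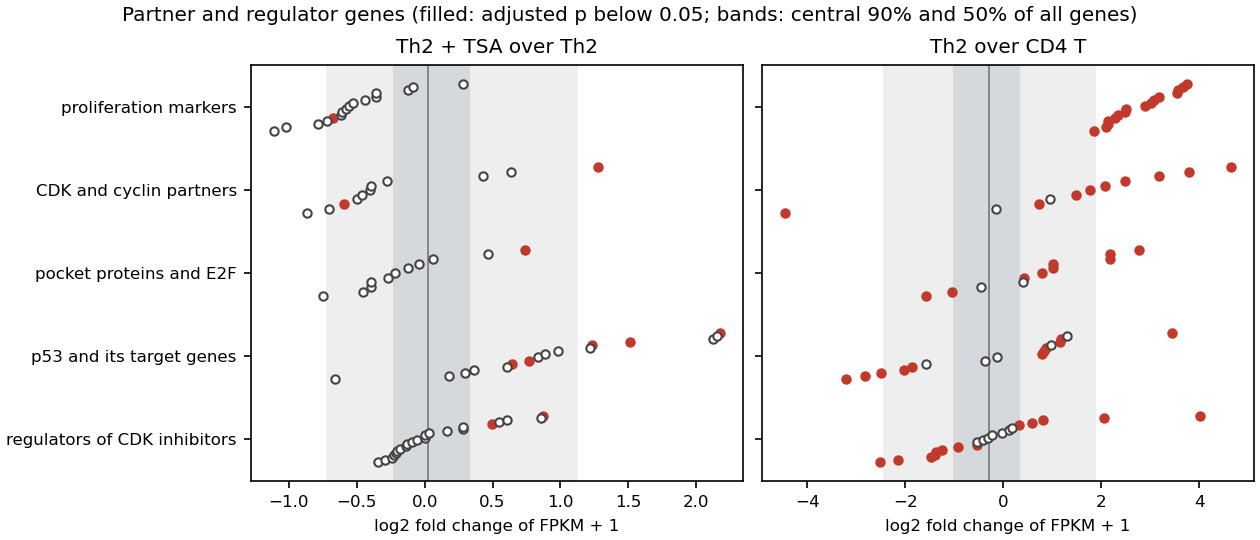
Log2 fold change of FPKM + 1 (horizontal axis) of each gene in 5 lists, in TSA-treated over untreated Th2 cells (left) and Th2 over CD4 T cells (right); filled points have an adjusted p below 0.05, and the bands hold the central 90% and 50% of all genes. All 16 proliferation markers are filled on the right, where 16.9% of all genes were called higher and 38.1% lower, and 5 of 16 p53 list genes are filled on the left, where 9.26% were called higher and 4.14% lower.

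The genes closest in pattern were found by the distance between centred group means of log2(FPKM + 1) over 5 groups, among 10453 genes, as a description. Closest to Cdkn1a were Lama5 (distance 0.97), Egln3, AA467197, Ifitm2 and Pgk1. Closest to Cdkn1b were Pitpnm2 (0.30), Nin, Runx1, Unc5cl and Vgll4, and closest to Cdkn2c were Crip1 (0.59), Ucp2, Nfatc2, Arid5a and Gfi1. For Cdkn2a, added after its values were seen, they were Cox6b2 (0.83), Selm, Bcam, Bex2 and Dyrk3. Cox6b2 averaged 118.7 FPKM in TSA-treated Th2, 19.5 in Th2, 1.49 in CD4 T, 1.92 in B and 75.1 in ES cells.

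The 2 transcripts of Cdkn2a could be compared in part. In the 4 Th2 files both rows held the same value, so p16 and p19Arf transcripts were not separated there. In the other 6 files the p19Arf row exceeded the p16 row by a ratio between 1.14 in an ES library and 2.59 in a CD4 T library. The latter is 0.44 over 0.17 FPKM. All CD4 T and B rows lay between 0.07 and 0.47 FPKM, so their ratios are uncertain. The ES ratios, from rows of 21.21 to 25.95 FPKM, were 1.16 and 1.14. The annotation places an antisense gene over Cdkn1c and a gene on the opposite strand over Cdkn1a, and no source used here gives the use of strand, so reads of these pairs cannot be told apart.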

How the data were processed

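RNA was prepared with a TruSeq RNA kit, per the labels' protocols. The deposited FPKM values came from Bowtie 0.12.8, TopHat 1.3.2 and Cufflinks 2.0.2 on mm10, per the submitters' processing notes; no source used here gives settings, strand or read numbers. Each file had 21035 rows, of which 315 had no symbol and 30 a date in its place; these were named from RefSeq. In the Th2 files the rows of a symbol were identical, so a gene took its highest row. In the other files they were identical for 67 of 1449 symbols with several rows. The highest row there may thus be only part of a gene's transcripts.

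Genes with 1 FPKM or more in 2 libraries were fitted as log2(FPKM + 1) values by limma 3.58.1 (R 4.3.3) using a trended prior, as 7 samples with 2 residual degrees of freedom. Fold changes on this scale understate changes of low genes. All 6 CDK inhibitor genes with rows passed the filter. Genes at 0 in all Th2 files or in all 6 others were left out between the 2 kinds of file. In simulated data for TSA-treated against untreated Th2 cells with 12869 genes, 53.3% of genes changed by a log2 of 2 and 86.1% of those changed by 3 were called. All genes of the Th2 libraries had the same spread there, without a deviation shared by experiment number. Only genes with 5 FPKM or more in Th2 cells were changed. Cdkn2a (mean 4.895 FPKM), Cdkn2b (1.63) and Cdkn1c (0.85) lie below that level, so these shares do not apply to them. The Th2 libraries of Cdkn1a (110.71 and 168.60 FPKM) and Cdkn1b (18.27 and 38.74 FPKM) differed by more than the simulated spread. The shares are therefore too high for these 2 genes.

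The genes and lists were chosen with earlier results of these data known. Named list genes are up to 4 per list by size of change with 5 FPKM or more in the higher group; Mcm2, Ccng1, Aen, Ei24 and Trp53 were named after their values were seen, as were the marker genes. Promoter windows were limited to the bases before the start. A first search for the p53 response element was followed by a second form chosen after its match was seen; both are reported. Alternatives covered pseudocounts, filters, scaling, row choice, separate libraries, a replicate block and left-out libraries.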

Additional observations from a re-analysis of the deposited data

How the results depend on the processing

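Over 612 alternatives of 36 CDK inhibitor results, 569 kept their direction and side of the threshold, 20 lost a call, 19 gained one, 3 differences between CD4 T and B cells without a call changed sign, and 1 reversed: Cdkn1c in Th2 against CD4 T cells, at -0.17 without the second Th2 library (range without 1 library -0.17 to 0.32). The causes were not tested. Some alternatives could hardly change a result. Leaving out an ES, B or CD4 T library, for example, kept every log2 fold change of these genes with TSA. The count of 569 is therefore not a measure of how firm the results are. Depth is unknown and limits every low value.

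For TSA-treated against untreated Th2 cells, genes called higher and lower were 570 and 201 without the filter on low values (0 CDK inhibitor genes higher), 3902 and 2872 with 10 libraries taken separately (4 higher), and 1795 and 935 with genes at 0 in every Th2 file left out, an alternative chosen after seeing the data (2 higher). Leaving out 1 library gave 0 to 1195 genes higher, 0 to 535 lower and 0 to 1 CDK inhibitor genes higher.

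For Th2 against CD4 T cells, 3227 genes were higher with quantile normalization and 3369 with separate libraries. One CDK inhibitor gene, Cdkn1b, was lower (1 in place of 0) with separate libraries and with zero genes left out. Leaving out 1 library gave 942 to 2086 genes higher, 2246 to 4709 lower and 1 to 4 CDK inhibitor genes higher. For Th2 against ES cells, 3712 genes were higher with quantile normalization. CDK inhibitor genes higher were 2 with median-ratio scaling, 3 with separate libraries and 2 with zero genes left out. The main fit called 19% of all genes higher. Leaving out 1 library gave 1432 to 2367 genes higher, 3254 to 5334 lower and 1 to 3 CDK inhibitor genes lower.

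The labels do not say that the experiment number marks a shared culture. Treated and untreated deviations by that number correlated at r = 0.588 over 10529 genes. With the replicate block, TSA-treated against untreated Th2 cells gave 1235 genes higher and 661 lower, Cdkn2a had an adjusted p of 0.0558, and Cdkn1c was called (0.0485). Th2 against CD4 T cells gave 1 CDK inhibitor gene lower with the block (Cdkn1b, 0.0134) and 2 higher in place of 3, since Cdkn2a was no longer called (0.0520). Of all 12367 genes in that comparison, 2664 were higher and 5383 lower with the block. Th2 against ES cells gave 3 CDK inhibitor genes higher and 3 lower with the block, where 2826 of 12367 genes were higher and 6048 lower.

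With a pseudocount of 5, the size rule took 816 genes higher and 721 lower in CD4 T against ES cells, 776 and 833 in B against ES cells, and 147 and 127 in CD4 T against B cells; 1 CDK inhibitor gene was higher and 2 were lower in each comparison with ES cells. With a log2 fold change of at least 1 these counts were 2488 and 3012, 2257 and 3221, and 856 and 567.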
